A study of Mus musculus with 11 samples.

Results

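The genes described here encode immune cytokines in microglia of the mouse spinal cord: Ebi3 with its partner Il27, and 8 ligands of the Tnf superfamily (Tnfsf8, Tnf, Tnfsf9, Tnfsf10, Tnfsf12, Tnfsf13, Tnfsf13b and Tnfsf14). They are 10 of the 39017 genes in the deposited count table, found by matching Ensembl identifiers to mouse symbols. The set was selected on measured values, the cKO against WT fold changes, Ebi3 and Tnfsf8 being among the genes with the largest decreases, so for these 10 genes the knockout comparison is given as a description and not as a test.

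RNA bound to tagged ribosomes was sequenced from spinal cords of healthy female C57BL/6 mice, with 5 libraries labelled Kdm6a cKO (numbered 2, 4, 5, 6 and 7) and 6 labelled wildtype (numbered 8, 9, 13, 15, 16 and 17); values given library by library follow these orders. All came from mice with the RiboTag allele, which puts an epitope tag on a ribosomal protein after Cre recombination, and Tmem119-Cre/ERT2, a tamoxifen-inducible Cre driven by a microglial gene. Kdm6a, which encodes an H3K27 demethylase and lies on the X chromosome, was deleted through this Cre in the cKO, so both the tag and the deletion depended on recombination in cells using the Tmem119 promoter. The labels give no age, no tamoxifen schedule and no statement that each library was 1 animal, and p-values therefore measure the spread between these libraries.

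Ebi3 pairs with the Il27 product p28 to form interleukin-27 and with the Il12a product to form interleukin-35, and neither cytokine is made from Ebi3 alone. Ligands of the Tnf superfamily are made as membrane proteins that act as trimers, some after being cut from the surface, and signal through receptors of the Tnfrsf family to survival, costimulation or death pathways. In the central nervous system microglia are a main source of Tnf and are known to make Tnfsf13b, the B cell survival factor BAFF.

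Library totals ran from 28620584 to 40943004 counts. Kdm6a itself averaged 6.31 ± 1.53 CPM (counts relative to library size after TMM scaling; SD, n = 5) in cKO and 9.59 ± 1.87 CPM (SD, n = 6) in WT, with overlapping ranges, and did not pass (log2 fold change -0.61, SE 0.25, adjusted p = 0.193 in edgeR); which exons were removed is not stated. The summed level of 10 microglial markers was 26285 to 28369.8 CPM across cKO and 19290.1 to 24452 CPM across WT, with 7 of the 10 called higher (exact permutation p = 0.00433 over 462 splits, adjusted 0.0238 over 11 lists). In such bulk samples fewer cells of a type and less RNA per cell cannot be told apart.

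Of the 10 genes, 9 had counts and the same 9 passed the filter on low counts, and Tnf had 0 counts in every library. Tnfsf14 passed through the WT libraries, since 4 of 5 cKO libraries were at 0. In edgeR's quasi-likelihood fit over 16025 genes 4.29% of genes were called at an adjusted p under 0.05, and 2.43% were called lower in cKO. On that rule 3 of the 9 genes were called lower (Ebi3, Tnfsf8 and Tnfsf13b) and 0 higher. At an unadjusted p under 0.05 the counts were 4 and 0, the added gene being Tnfsf14, which passed the filter only through WT. The share of all genes at that unadjusted threshold is not given here. DESeq2 called 3 lower and 0 higher, where over all genes it called 683 lower and 479 higher. Limma-voom called 1 lower and 0 higher, and its totals over all genes are not given here. For Ebi3, Tnfsf8 and Tnfsf13b every cKO library lay below every WT library, an arrangement that held for 1.99% of all genes tested. Groups did not overlap in either direction for 4.16% of all genes tested. The median log2 fold change over the 9 genes was -0.55, and over all genes tested it was -0.013; nothing is read from these shares, since the contrast was used to choose the set.

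The start regions of the 3 genes whose groups did not overlap, and of Tnfrsf13b, the receptor described further on, are shown because the levels of these genes lay lower in all cKO libraries. Windows run from 250 bases before to 50 bases after each RefSeq start on GRCm38.p6, the assembly of mm10, and 7 of the 10 genes had one in the RefSeq promoter table. Capitals mark matches, on either strand, to AGGAAGT or its longer form GAGGAAGT (both of PU.1 type), TGANTCA (AP-1 type), GGGANTTCC or a form 1 base longer (both of kappa B type), or the interferon response type pattern.
Ebi3, chr17:55952373-55952672, plus strand: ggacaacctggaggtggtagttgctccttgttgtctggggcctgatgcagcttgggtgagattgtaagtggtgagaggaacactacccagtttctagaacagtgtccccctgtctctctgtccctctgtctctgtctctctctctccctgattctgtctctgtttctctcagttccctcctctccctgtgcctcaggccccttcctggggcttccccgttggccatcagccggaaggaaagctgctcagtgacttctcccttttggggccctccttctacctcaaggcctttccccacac
Tnfsf8, chr4:63861235-63861534, minus strand: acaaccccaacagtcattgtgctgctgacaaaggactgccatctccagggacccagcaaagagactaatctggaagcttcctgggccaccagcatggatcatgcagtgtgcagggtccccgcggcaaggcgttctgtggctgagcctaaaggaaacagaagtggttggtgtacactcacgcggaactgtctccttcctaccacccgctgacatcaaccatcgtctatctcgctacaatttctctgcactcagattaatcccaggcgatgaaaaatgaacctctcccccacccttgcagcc
Tnfsf13b, chr8:10006383-10006682, plus strand: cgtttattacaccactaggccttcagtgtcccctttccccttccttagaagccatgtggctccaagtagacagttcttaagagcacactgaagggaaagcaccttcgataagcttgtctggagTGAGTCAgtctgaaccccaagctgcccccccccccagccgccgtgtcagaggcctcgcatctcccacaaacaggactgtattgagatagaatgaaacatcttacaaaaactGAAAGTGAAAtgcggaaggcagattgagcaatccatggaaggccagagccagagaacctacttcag
Tnfrsf13b, chr11:61126505-61126804, plus strand: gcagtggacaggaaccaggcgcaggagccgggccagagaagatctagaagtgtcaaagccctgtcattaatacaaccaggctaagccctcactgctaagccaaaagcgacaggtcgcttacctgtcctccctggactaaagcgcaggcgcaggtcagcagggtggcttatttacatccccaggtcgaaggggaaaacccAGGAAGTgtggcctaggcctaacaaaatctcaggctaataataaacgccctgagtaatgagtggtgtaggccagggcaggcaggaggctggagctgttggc

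None of the 6 patterns was found in the Ebi3 and Tnfsf8 windows, which says only that these letters are not in these 300 bases. The Tnfsf13b window held 1 AP-1 type match and 1 interferon response type match, and its other RefSeq window, which overlaps the one shown, held the same AP-1 type match. The Tnfrsf13b window held AGGAAGT. Among windows not shown, those of Tnfsf13 and Tnfsf14, whose groups overlapped, also held an AP-1 type match. That of Tnf held AGGAAGT, and that of Tnfsf10 held none of the patterns. Over 32851 windows of this length AGGAAGT was present in 9.35%, GAGGAAGT in 3.20%, TGANTCA in 7.81%, GGGANTTCC in 1.68%, its longer form in 1.47% and the interferon response type pattern in 3.44%.

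Ebi3 (ENSMUSG00000003206, mm10 chromosome 17, plus strand, 55952640 to 55957022) had 35.2, 29.6, 25.2, 33.6, 27.1 and 27.2 CPM across the WT libraries. Across the cKO libraries it had 4.24, 5.10, 2.31, 6.14 and 7.34 CPM. The highest cKO library (cKO7) lay well below the lowest WT library (WT13), and cKO5 was lowest of all. Averages were 29.7 ± 3.96 CPM (SD, n = 6) for WT and 5.03 ± 1.91 CPM (SD, n = 5) in cKO, a 5.89-fold lower level (log2 fold change -2.56, SE 0.23, 95% interval -3.04 to -2.07). The raw counts behind this were 934 to 1265 in WT and 66 to 259 in cKO.

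Il27 (ENSMUSG00000044701, chromosome 7, 126589010 to 126594941, minus strand of mm10), which encodes the p28 chain that Ebi3 binds in interleukin-27, had 1.88 to 3.92 CPM in WT (median 2.92) and 2.40, 1.5, 2.03, 0.48 and 3.09 CPM across the cKO libraries. The groups overlapped, with cKO7 above 5 of the 6 WT libraries. Its difference on the log2 scale was -0.55 (SE 0.52), and the 95% interval, -1.63 to 0.52, spans 0. The end of Il27 overlaps Apobr on the opposite strand, which had 42525 counts in all against 909 for Il27, and how strand was treated in counting is not stated. Il12a, the partner of Ebi3 in interleukin-35, had 32 counts over all libraries and was too low to test.

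**Figure D1:**
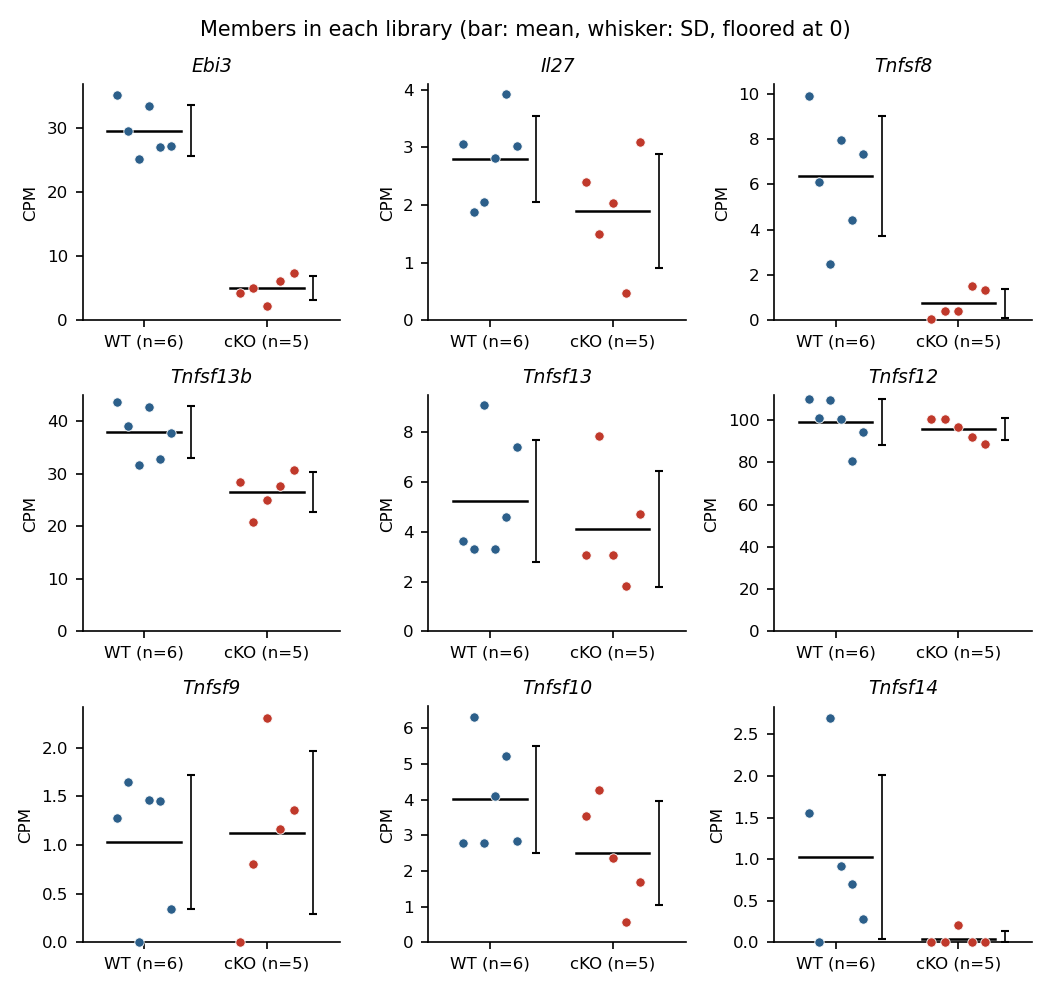
CPM (vertical axis, linear, from 0) of the 9 measured genes in each WT library (blue, n = 6) and each cKO library (red, n = 5), with the mean as a bar and the SD as a whisker. For Ebi3 the cKO libraries sit between 2.31 and 7.34 CPM, below all WT libraries, and the same separation is seen for Tnfsf8 and Tnfsf13b, while the other 6 genes overlap.

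Tnfsf8 (ENSMUSG00000028362, chromosome 4, 63831308 to 63861347, minus strand), the ligand of CD30, had 9.91, 6.10, 2.47, 7.95, 4.41 and 7.36 CPM across the WT libraries. Across the cKO libraries it had 0.062, 0.40, 0.42, 1.54 and 1.36 CPM, from 2, 14, 12, 42 and 48 counts. All cKO libraries were below all WT libraries, but WT libraries differed among themselves by more than for Ebi3, with WT13 and WT16 lowest. On average WT had 6.37 ± 2.65 CPM (SD, n = 6) and cKO 0.76 ± 0.65 CPM (SD, n = 5), 8.40-fold lower in cKO (log2 fold change -3.07, SE 0.58, 95% interval -4.28 to -1.86). Without WT13, WT16 and WT17, the libraries with the highest neuronal and astrocyte marker sums, the log2 fold change was -3.40 for Tnfsf8 and -2.71 for Ebi3. Limma-voom did not call Tnfsf8 (log2 fold change -3.52).

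Tnfsf13b (ENSMUSG00000031497, chromosome 8, 10006467 to 10039072, plus strand), which encodes BAFF, had 43.8, 39.2, 31.7, 42.8, 32.9 and 37.7 CPM across the WT libraries. It had 28.4, 20.9, 25.0, 27.7 and 30.7 CPM across the cKO libraries. The groups did not overlap, but cKO7 and WT13 were nearly level. On average WT had 38 ± 4.96 CPM (SD, n = 6) and cKO 26.5 ± 3.76 CPM (SD, n = 5), 1.43-fold lower in cKO (log2 fold change -0.52, SE 0.14, 95% interval -0.80 to -0.24). This call lay near the threshold: it was lost in 7 of 19 alternatives, namely in limma-voom and when cKO4, cKO5, cKO6, WT8, WT9 or WT15 was left out, with the log2 fold change between -0.44 and -0.66 throughout.

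**Figure D2:**
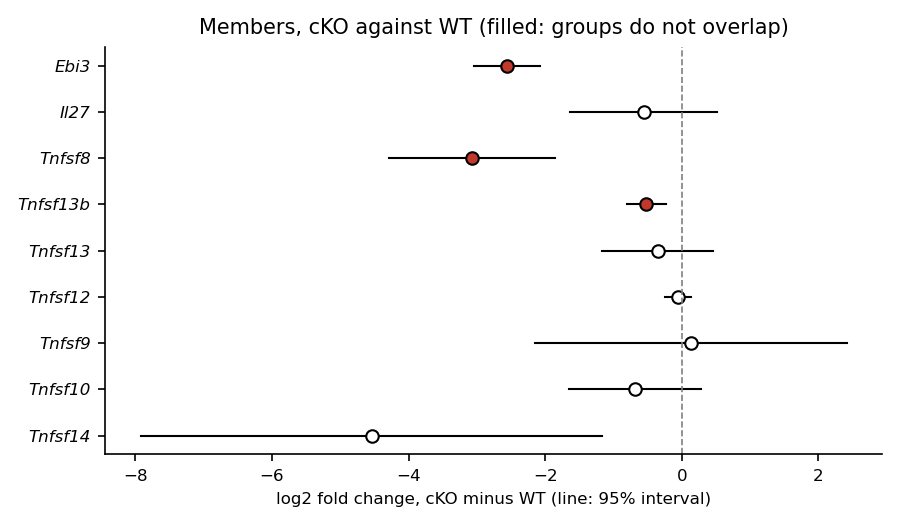
Log2 fold change of each measured gene, cKO minus WT (horizontal axis), with its 95% interval as a line; filled points are the 3 genes whose groups do not overlap. Ebi3 (-2.56), Tnfsf8 (-3.07) and Tnfsf13b (-0.52) are filled, and the interval of Tnfsf14 is the widest of the 9.

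Tnfsf13 (ENSMUSG00000089669, chromosome 11, 69682846 to 69685784, minus strand) encodes APRIL, the close relative of BAFF, and Tnfsf12 (ENSMUSG00000097328, chromosome 11, 69686250 to 69695849, minus strand) encodes TWEAK. The genes lie next to each other and both overlap the read-through gene Tnfsfm13 on the same strand, which had 8030 counts of its own, so their counts may be split between the 3 genes and are uncertain. Tnfsf12 had 80.7 to 110.0 CPM in WT (median 100.7) and 100.3, 100.5, 96.6, 91.9 and 88.9 CPM across the cKO libraries. The libraries of both genotypes overlapped, and the difference on the log2 scale was -0.054 (SE 0.094), with a 95% interval of -0.25 to 0.14. Tnfsf13 had 3.30 to 9.11 CPM in WT (median 4.12) and 1.83 to 7.86 CPM in cKO (median 3.08), with WT13 and cKO4 highest and the groups overlapping (log2 fold change -0.35, SE 0.39).

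Tnfsf10 (ENSMUSG00000039304, chromosome 3, 27317028 to 27342427, plus strand) encodes the death ligand TRAIL. It had 2.78 to 6.32 CPM in WT (median 3.46) and 3.55, 4.26, 2.38, 0.58 and 1.70 CPM across the cKO libraries, where 2 cKO libraries lay within the WT range (log2 fold change -0.68, SE 0.47, 95% interval -1.65 to 0.29). Tnfsf9 (ENSMUSG00000035678, chromosome 17, 57105325 to 57107757, plus strand), the ligand of 4-1BB, had 1.28, 1.65, 0, 1.47, 1.45 and 0.34 CPM across the WT libraries and 0, 0.81, 2.31, 1.17 and 1.36 CPM across the cKO libraries. A library of each genotype was at 0 and the groups overlapped. Its log2 fold change of 0.13 (SE 1.10) had an interval from -2.16 to 2.42, too wide to place it.

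Tnfsf14 (ENSMUSG00000005824, chromosome 17, 57189492 to 57194177, minus strand) encodes LIGHT, a ligand of HVEM and of the lymphotoxin beta receptor. It had 56, 0, 118, 30, 24 and 10 counts across the WT libraries, and 0 counts in each cKO library except cKO5, which had 6. WT9 was also at 0, so the groups overlapped. The fitted log2 fold change of -4.54 (SE 1.63) rests on these few counts, was available in 11 of 19 alternatives and ran from -8.16 to -4.22 as single libraries were left out. The lowest value came without cKO5, when every remaining cKO library was at 0, and is no bound. Even numbers made up 73.5 to 83.9% of the counts between 1 and 200 in each library, and how this arose was not tested.

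Tnf (ENSMUSG00000024401, chromosome 17, 35199381 to 35202007, minus strand) was at 0 in all 11 libraries, and so were Lta and Ltb beside it. These 3 lie in a run of 12 protein-coding genes, from 35128997 to 35253707, all at 0 counts, and 29 of 32 protein-coding genes within 200 kb of Tnf were at 0. Tnf was therefore treated as not measured, and the table gives no information on its level.

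Between genes, levels are compared per kilobase of exon in GENCODE M21. In WT, Tnfsf12 was highest at 65.5 ± 7.17 CPM per kb (SD, n = 6), Ebi3 next at 25.7 ± 3.43 and then Tnfsf13b at 5.54 ± 0.72, and the ranges of these 3 did not overlap. Below them on average came Tnfsf13 (3.20 CPM per kb), Il27 (2.74), Tnfsf8 (1.67), Tnfsf9 (0.80), Tnfsf10 (0.76) and Tnfsf14 (0.56), where each overlapped the next in order. Tnfsf13 also overlapped Tnfsf13b, reaching 5.57 CPM per kb where the lowest WT value of Tnfsf13b was 4.62. In cKO, Tnfsf12 was again apart from the rest at 63.1 ± 3.40 CPM per kb (SD, n = 5), while Ebi3 at 4.36 ± 1.66 overlapped Tnfsf13b at 3.86 ± 0.55. Per kilobase, the level of Ebi3 was above that of Il27 on average in both genotypes, at 25.7 against 2.74 CPM per kb in WT, without overlap, and at 4.36 against 1.86 CPM per kb in cKO, where the ranges overlapped.

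On the chromosome, Ebi3 overlaps Gm16712, an antisense gene (ENSMUSG00000097077, chromosome 17, 55954771 to 55959381, minus strand). Gm16712 had 8.66, 8.69, 4.97, 7.92, 5.66 and 5.01 CPM across the WT libraries, and 1.59, 0.78, 0.070, 2.27 and 2.47 CPM across the cKO libraries. It fell to 1.43 ± 1.01 CPM (SD, n = 5) from 6.82 ± 1.80 (SD, n = 6), with no overlap between the groups and cKO5 lowest, as for Ebi3 (log2 fold change -2.24, SE 0.52, adjusted p = 0.0140 in edgeR, and 0.0505 without cKO4). The library kit was stranded, but how strand was treated in counting is not stated, so reads of Ebi3 and Gm16712 cannot be told apart. Of the 16 tested genes within 200 kb of Ebi3, Gm16712 was the only one that passed. Yju2, the nearest that does not overlap Ebi3, was at -0.093 (SE 0.24).

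**Figure D3:**
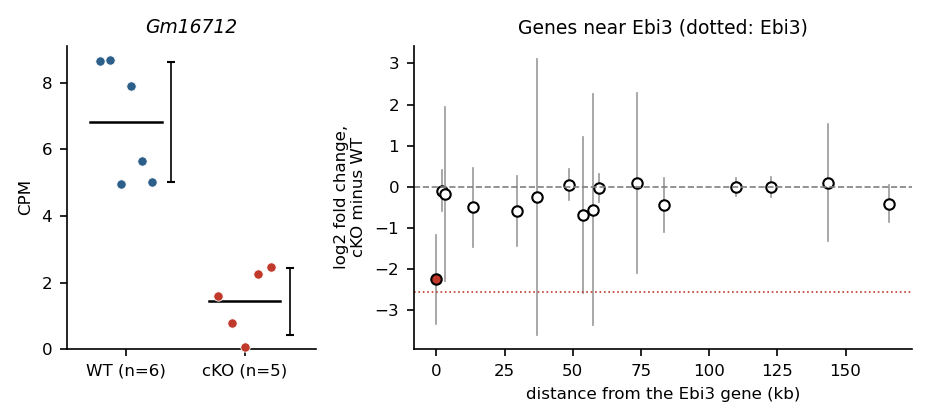
Left, CPM of the antisense gene Gm16712 in each library, with mean and SD. Right, log2 fold change (cKO minus WT) with 95% interval of the 16 tested genes within 200 kb of Ebi3, against distance from the Ebi3 gene in kb; only Gm16712, at distance 0, is filled (adjusted p under 0.05) and lies near the dotted line that marks Ebi3 at -2.56.

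The regions of Tnfsf8 and Tnfsf9 were examined in the same way. Within 200 kb of Tnfsf8 the only gene high enough to test was Tnc, which encodes the matrix protein tenascin-C (log2 fold change -0.95, SE 0.75, adjusted p = 0.567 in edgeR), and Tnfsf15, the next ligand gene, was at 0 in every library. Within 200 kb of Tnfsf9, where Tnfsf14 and Cd70 also lie, 0 of 15 tested genes passed in edgeR, DESeq2 or limma-voom. At an unadjusted p under 0.05, 3 were higher and 1 lower, the lower gene being Tnfsf14, itself among the cytokines described here. Vav1, a signalling protein of blood cells, was at 0.29 there (SE 0.10; edgeR adjusted p = 0.104). Cd70, the ligand of CD27, had 2 counts in all.

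On the receptor side, 13 genes for receptors of these cytokines were taken, a chosen set and not a full list, and 11 were high enough to test. Tnfrsf13b, which encodes TACI, a receptor shared by BAFF and APRIL, was the only one of the 11 that passed, where 2.43% of all genes were called lower. It had 196.8, 190.5, 198.4, 191.4, 235.7 and 190.9 CPM across the WT libraries, and 130.1, 140.1, 120.1, 112.2 and 111.4 CPM across the cKO libraries. Every cKO library lay below every WT library, with WT16 alone above the other WT libraries. Tnfrsf13b fell 1.63-fold, from 200.6 ± 17.5 CPM (SD, n = 6) to 122.8 ± 12.3 CPM (SD, n = 5), with a log2 fold change of -0.71 (SE 0.088, adjusted p = 2.05e-05 in edgeR), and it passed in all 19 alternatives.

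The other receptors of BAFF and APRIL did not pass. Tnfrsf17, which encodes BCMA, was at 9.49 ± 2.89 CPM in cKO (SD, n = 5) and 11.2 ± 3.04 CPM in WT (SD, n = 6; log2 fold change -0.24, 95% interval -0.76 to 0.28; edgeR adjusted p = 0.693). Tnfrsf13c, the BAFF receptor proper, had 0.32 and 0.53 CPM on average and was at 0 in 4 libraries. Of the receptors of Tnf itself, Tnfrsf1a was at 327.9 ± 19.5 CPM in cKO (SD, n = 5) and 318.1 ± 37.4 CPM in WT (SD, n = 6), and Tnfrsf1b at 305.4 ± 30.0 and 250.7 ± 34.6 CPM. Tnfrsf1b did not pass (log2 fold change 0.29, SE 0.095, adjusted p = 0.0968 in edgeR) except without WT15 (0.33; edgeR adjusted p = 0.0422).

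The receptors that bind the products of Ebi3 and Tnfsf8 were also examined. Tnfrsf8, which encodes CD30, the receptor of the Tnfsf8 ligand, had 154 counts over all libraries, 94 of them in WT13, and was not tested. Il27ra, the specific chain of the interleukin-27 receptor, was at 0.48 ± 0.49 CPM in cKO (SD, n = 5) and 0.89 ± 0.41 CPM in WT (SD, n = 6; edgeR adjusted p = 0.767). Its shared chain gp130, encoded by Il6st, was at 707.7 ± 89.9 and 659.7 ± 47.7 CPM, with a log2 fold change of 0.10 (SE 0.084, adjusted p = 0.591 in edgeR). Tnfrsf9, the receptor for the Tnfsf9 ligand, was at 0 in every library.

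**Figure D4:**
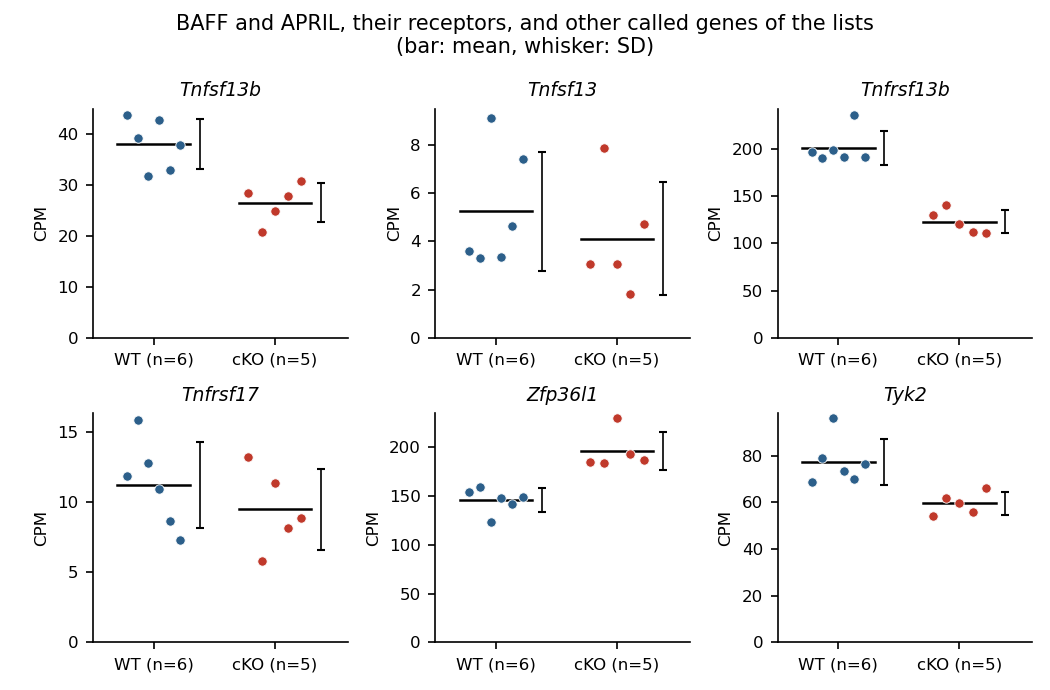
CPM (linear, from 0) in each library of the BAFF gene Tnfsf13b, the APRIL gene Tnfsf13, their receptors Tnfrsf13b and Tnfrsf17, and the called genes Zfp36l1 and Tyk2, with mean and SD. Tnfrsf13b is between 111.4 and 140.1 CPM in cKO and at least 190.5 CPM in WT, while Tnfrsf17 overlaps.

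Across the wider pathway 6 lists were counted against the shares called over all genes, 2.43% lower and 1.86% higher. Of 28 Tnf superfamily receptors 21 were tested, with 1 lower (Tnfrsf13b) and 0 higher; at an unadjusted p under 0.05 these were 2 and 1, DESeq2 and limma-voom each called 1 lower and 0 higher, and the median log2 fold change was -0.047. Of 19 adaptors and kinases that carry the receptor signal 18 were tested and 0 passed in edgeR, DESeq2 or limma-voom, with 0 also at an unadjusted p under 0.05 and a median of -0.019. Those with the highest average log2 CPM were Cflar, an inhibitor of caspase-8 (0.065, SE 0.084), and Tab2, an adaptor of the kinase TAK1 (0.051, SE 0.13). Of 10 other Tnf superfamily ligands 5 were at 0 in every library and only Eda was tested, at -0.89 (SE 1.01; edgeR adjusted p = 0.730). Lta and Ltb, among those at 0, lie in the same run of 0 counts as Tnf, which was treated as not measured.

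Of 14 genes for shedding of Tnf ligands and control of cytokine mRNA, all were tested and 1 rose. This was Zfp36l1, which encodes a protein that binds AU-rich elements and promotes mRNA decay. Zfp36l1 had 154.2, 159.2, 123.9, 148.2, 142.0 and 149.4 CPM across the WT libraries, against 184.7, 184.4, 229.7, 193.6 and 187.5 CPM across the cKO libraries. No cKO library reached down to the WT range, and cKO5 stood highest (log2 fold change 0.42, SE 0.086, adjusted p = 0.00496 in edgeR). The median of the list was -0.048, with 2 higher and 0 lower at an unadjusted p under 0.05.

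Of 10 cytokine subunits related to Ebi3 and the interleukin-6 group, 4 were tested and 0 passed in edgeR, DESeq2 or limma-voom, with 0 at an unadjusted p under 0.05 and a median of -0.94. Those with the highest average log2 CPM were Osm, oncostatin M, at -0.36 (SE 0.20; edgeR adjusted p = 0.353), and Il6 at -1.05 (SE 0.97; edgeR adjusted p = 0.644). Of 14 genes of the interleukin-27 and interleukin-35 receptors and their JAK and STAT signalling 11 were tested, 1 fell and 0 rose, with 2 lower and 1 higher at an unadjusted p under 0.05 and a median of -0.020. The kinase gene Tyk2 had 68.7, 78.9, 96.1, 73.3, 70.1 and 76.5 CPM across the WT libraries, and 54.0, 62.0, 59.6, 56.0 and 66.0 CPM across the cKO libraries. Its groups did not overlap, though cKO7 lay close to WT8. Tyk2 fell from 77.3 ± 9.99 CPM (SD, n = 6) to 59.5 ± 4.79 CPM (SD, n = 5), with a log2 fold change of -0.38 (SE 0.10, adjusted p = 0.0407 in edgeR). It lost that call in 11 of 19 alternatives, among them limma-voom and each of cKO2, cKO4, cKO5, cKO6, WT9, WT13, WT16 and WT17 left out, where the log2 fold change ran from -0.29 to -0.40.

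**Figure D5:**
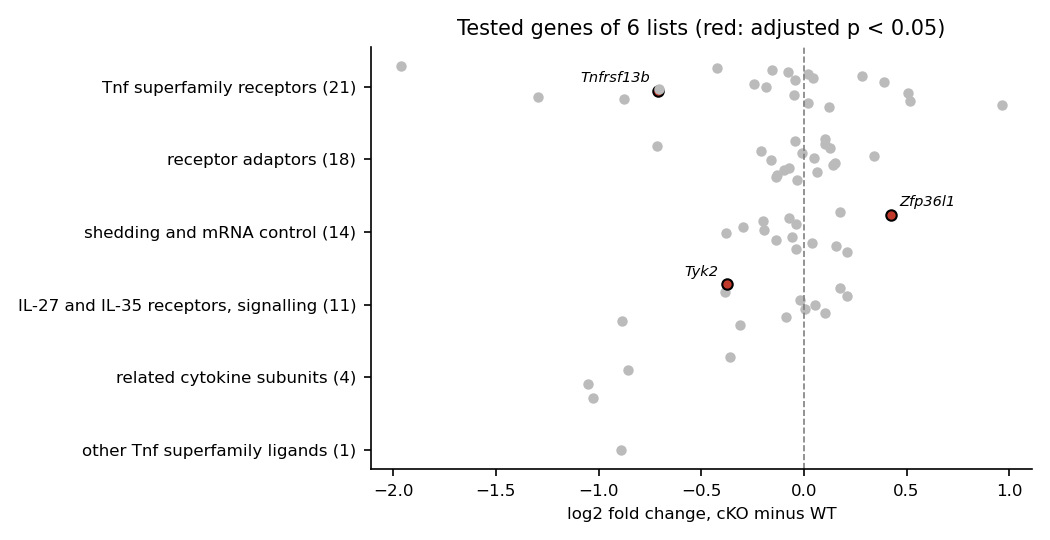
Log2 fold change (cKO minus WT, horizontal axis) of each tested gene of the 6 lists, with the number tested in parentheses; red points have an adjusted p under 0.05. Tnfrsf13b (-0.71), Zfp36l1 (0.42) and Tyk2 (-0.38) are the 3 red points.

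Likeness of pattern was taken as the root mean square difference of log2 CPM over the 11 libraries after each gene was centred on its own mean. Candidates were 11480 genes of at least 1 log2 CPM on average. The listed cytokines and genes with predicted or unnamed symbols, Gm16712 among them, were left out of the candidates. For Ebi3 the 4 closest were Mrc2, a collagen receptor (0.50), Slc13a3, a dicarboxylate transporter (0.55), the transglutaminase gene Tgm2 (0.56) and the sialic acid receptor gene Siglecf (0.56), against a median of 1.41 over the candidates. All 4 had cKO libraries below all WT libraries, with log2 fold changes of -2.05, -2.08, -2.73 and -2.33. For Tnfsf8 they were Nccrp1 (1.01), Siglecf (1.07), Slamf8 (1.12) and Tgm2 (1.16), against a median of 1.99, and Siglecf and Tgm2 were listed for both genes. A gene level in all libraries would lie at 1.37 from Ebi3 and 1.97 from Tnfsf8, close to those medians. The measure spans both genotypes, whose difference was used to choose the set, so nothing is read from this likeness.

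For Tnfsf13b the closest were the chemokine gene Ccl6 (0.12), Tns1, which encodes the adhesion protein tensin-1 (0.12), Ninj1, which encodes a protein of membrane rupture (0.14), and Paqr7 (0.15), against a median of 0.44. Their log2 fold changes were -0.62, -0.43, -0.47 and -0.39. For Tnfsf12 they were Crat, carnitine acetyltransferase (0.066), Ptdss1, phosphatidylserine synthase (0.073), Ndufb11, a subunit of respiratory complex I (0.074), and Mir682 (0.077), all overlapping between genotypes. The same 4 genes were found for each of these cytokines when library totals replaced the TMM factors.

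Marker sums of other cell types are given beside these values, and their part in the cytokine results was not tested. T and NK cell markers summed to at most 1.90 CPM in cKO and 0.76 CPM in WT, with Cd3d, Cd3g and Trac at 0 in every library. Monocyte and neutrophil markers reached 1.40 and 3.25 CPM, with Ly6c2, Ly6g and Retnlg at 0, and markers of border-associated macrophages 2.44 and 1.93 CPM, with Pf4 and Lyve1 at 0. Dendritic cell markers summed to 8.96 to 12.4 CPM across cKO and 7.92 to 24.1 CPM across WT, with Cd209a at 0, and B cell markers to 19.9 to 35.9 and 16.4 to 27.9 CPM, with Ms4a1 at 0. Endothelial markers summed to 37.6 to 43.3 CPM across cKO and 46.8 to 119.4 CPM across WT (exact permutation p = 0.00433, adjusted 0.0238), with 2 of 7 lower and Cldn5 at 0. Neuronal, astrocyte, oligodendrocyte and mural lists did not pass (adjusted exact permutation p from 0.262 to 0.942), with neuronal sums of 1035 to 1263 CPM in cKO and 1087 to 2644 CPM in WT. Astrocyte sums were 686.8 to 849.8 and 754 to 1255 CPM, oligodendrocyte sums 4774 to 5472 and 4653 to 6000.0 CPM, and mural sums 14.4 to 35.2 and 18.4 to 94.2 CPM.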

How the data were processed

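The authors deposited counts: whole numbers for each gene and library, not normalized as far as the values show. Tools named by the submitters' processing notes are bcl2fastq 2.17, FastQC and Trimmomatic, with the build mm10. Aligner, counter, annotation and treatment of strand: not given in the sources used here. Per the labels' protocols, the KAPA Stranded kit was used, which enriches mRNA first.

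Symbols were found for 37607 of 39017 identifiers. Genes kept by filterByExpr (minimum count 10, minimum total 15) were TMM-scaled and tested with edgeR 4.0.16 (R 4.3.3), robust quasi-likelihood F test, genotype only, all 11 samples, Benjamini-Hochberg adjustment over 16025 genes, threshold 0.05. The SE is the size of the log2 fold change divided by the square root of F. Log2 CPM used a prior count of 2. Alternatives were DESeq2 1.42.0, limma-voom (limma 3.58.1), other scalings and filters, libraries left out and a marker covariate. The procedure was also run on counts simulated from the spread fitted to these data. Changes were planted only in genes above a minimum average level, so the simulation does not cover the lowest genes or the excess of even counts.

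The cytokines and lists were chosen with earlier results of these data known. Named list genes are up to 4 called, by p, or otherwise the 2 most abundant; tested genes within 200 kb of Ebi3, Tnfsf8 or Tnfsf9 are counted, with examples named; receptors were chosen for binding a listed cytokine. Tnfrsf1b, Tnfsf15, Cd70, Lta, Ltb, Il12a, Apobr, Yju2 and Vav1 were chosen for mention after their values were seen. No protein sequences were used here. Counts limit precision at low levels: 3 counts are 0.0687 to 0.110 CPM, counting error only.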

Additional observations from a re-analysis of the deposited data

Results flagged for a closer look

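Dixon's test for 1 library apart from the rest of its group was run on 146 groups, with log2 CPM (prior count 2) as the measure. It marked 14 of them at its 95% critical value, and about 1 in 20, or 7.3, would be marked by chance alone. The gap ratio in parentheses is the distance to the next library as a share of the group's range. Among the cytokines, Tnfsf9 was low in cKO2, at 0 counts (gap ratio 0.728). For Tnfsf14, cKO5 held the only cKO value above 0 (1.0). The other cKO libraries of Tnfsf14 were tied at 0, so any count in cKO5 would give that ratio. The rate of 1 in 20 does not hold for such ties. On the receptor side Tnfrsf13b was high in WT16, at 7.88 against 7.57 to 7.63 in the other WT libraries (0.810); without it the log2 fold change between genotypes was -0.66. Zfp36l1 was high in cKO5, at 7.84 against 7.53 to 7.60 (0.779), and so was Cflar, at 8.23 against 7.97 to 8.04 (0.729). Tab2 was low in WT13, at 7.14 against 7.97 to 8.13 (0.832).

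Near Ebi3, Yju2 was low in cKO7 (0.846), Rpl21-ps6 high in cKO2 (0.775), Zfp119a low in WT13, at 0 counts (0.766), and Ubxn6 high in WT13 (0.653). Near Tnfsf9, Gm11110 was low in cKO6, at 0 counts (0.777), Gtf2f1 high in WT9 (0.665) and Mllt1 high in WT15 (0.675). Slc13a3, close to Ebi3 in pattern, was low in cKO6 (0.756).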

How the results depend on the processing

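No paired analysis was possible because the cKO and WT libraries share no replicate numbers. Ebi3, Tnfrsf13b and Zfp36l1 kept their direction and their side of the threshold in all 19 alternatives, with log2 fold changes of -2.74 to -2.38, -0.79 to -0.66 and 0.34 to 0.45. In limma-voom the calls of Tnfsf8 (-3.52) and Tnfsf13b (-0.51) were lost, which left 1 of the cytokine genes called lower against 3. Leaving out 1 library at a time gave -0.58 to -0.44 for Tnfsf13b, -3.48 to -2.77 for Tnfsf8 and 2 to 3 cytokine genes called lower. Over all genes, 389 were called lower, against 601 with library totals and 683 in DESeq2. Over all genes, 298 were called higher, against 479 in DESeq2, 164 without WT13, WT16 and WT17 and 193 with the marker covariate. Leaving out 1 library gave 264 to 557 lower and 170 to 388 higher, the lowest count of higher genes without cKO5 (170) and the next without cKO6 (173). Receptors called higher were 0, or 0 to 1 with 1 library left out (Tnfrsf1b without WT15). Interleukin-27 and interleukin-35 signalling genes called lower were 1, against 0 in limma-voom, 0 without WT13, WT16 and WT17, 0 with the marker covariate and 0 to 1 with 1 library left out, Tyk2 being the gene concerned. The cause of these changes was not tested. Among uncalled genes the sign changed for Tnfsf9 in 5 of 18 alternatives and for Tnfsf13 in 2 of 19. Low counts limit Tnfsf9, Tnfsf14, Il27ra, Tnfrsf10b and Tnfrsf13c, each of which gave a value in fewer than 19 alternatives.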
